A study of Saccharomyces cerevisiae with 44 samples.

Results

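The Ty elements are the retrotransposons of budding yeast, and the rows described here are those that the authors' table of coding and structural features puts in its transposable element category. That category holds 334 of the 7006 rows of the table, and every row was taken, with or without reads. The table names them by family. There were 49 rows of whole elements: 30 of Ty1, holding 31 annotated elements, 13 of Ty2, 2 of Ty3, 3 of Ty4 and 1 of Ty5. A further 284 rows were solo long terminal repeats (LTRs), of which 211 were delta, 37 sigma, 29 tau, 6 omega and 1 a merged sigma and delta row. The last row, YLR035C-A, carries no element name. All RNA came from Saccharomyces cerevisiae of strain W303, and the study set nascent RNA beside steady-state RNA in quiescence, the resting state that yeast enters after nutrients run out. Nascent RNA was measured by 4tU-seq, a method in which RNA labelled with 4-thiouracil is sequenced, and steady-state RNA is total RNA. The 44 samples form 22 groups of 2 replicates.

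The groups fall into 4 sets, each fitted on its own. In the first set, wild-type cells arrested in G1 were set against wild-type quiescent cells of day 7, in nascent and in steady-state RNA. The G1 cells were given the mating pheromone α factor at 5 µg/ml in early log phase, followed by a second dose. The second set holds quiescent cells of day 8, wild-type and rrp6Δ, in both kinds of RNA. The third holds steady-state RNA of wild-type and rrp6Δ cells in G1 and at 2 h before, 2 h after, 24 h after and 48 h after the diauxic shift, the point at which glucose is used up. Its G1 cells were given α factor at the same concentration, also with a second dose. The fourth holds quiescent cells of day 7 of the strains Nab3-AID and OsTIR-AID in both kinds of RNA, all given auxin (IAA) at 1 mg/ml. Auxin degrades a protein that carries the AID tag, so OsTIR-AID cells are the control for auxin. All quiescent cells were purified on a gradient from cultures in YEP with 2% glucose. The first set was made with the Ovation SoLo kit and the others with the Universal Plus kit, so levels are compared only within a set. The replicates of a genotype carry different strain numbers, and nothing further is said of separate cultures, so p-values measure the spread between these samples.

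A Ty element is copied through its own RNA: the element is transcribed, the RNA is packed into a particle and reverse transcribed, and the DNA copy is inserted at a new place. Its body codes for Gag, the coat protein, and Pol, which holds protease, integrase and reverse transcriptase, and lies between 2 LTRs. Ty1 and Ty2 have delta LTRs, Ty3 sigma, Ty4 tau and Ty5 omega. A solo LTR is what is left after the body is lost by recombination between the LTRs. Ty1 transcription is known to need the factors Ste12 and Tec1, Ty3 and its sigma LTR are known to be induced by mating pheromone, and Ty5 is known to integrate into silent chromatin. Ty1 to Ty4 are known to integrate near genes read by RNA polymerase III, such as tRNA genes.

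Positions in the table followed that last pattern. Of the 334 rows, 259 (77.5%) lay within 1000 bases of a tRNA gene, against 412 of 6575 rows of genes (6.27%). The sigma LTRs were closest, with a median distance of 17 bases and 35 of 37 rows inside the window, and the Ty3 elements had the same median. The Ty1 median was 192 bases, and neither the Ty5 element nor any omega LTR lay inside the window. Whole Ty1 rows had a median width of 5918 bases, delta rows 316 bases and sigma rows 340 bases.

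The counts hold only reads that aligned to a single place, which limits what can be said of elements that share nearly all of their sequence. Reads that aligned to several places made up 8.89% to 77.9% of S. cerevisiae reads per library. In the first set that share was 20.7% to 29.6% in G1 and 31.1% to 35.3% in quiescence for steady-state RNA, and 13.3% to 13.95% and 8.89% to 10.8% for nascent RNA. Its part in the results was not tested. Over all libraries the rows held 3354809 reads, 42.0% of them on the 2 Ty3 elements, 30.9% on Ty1, 7.27% on Ty2 and 18.7% on LTRs. Within Ty1, the 5 best-read rows held 67.1% of the reads, and 9 rows had under 3000 reads in all 44 libraries together. Among LTR rows, 64 had under 100 reads, and 4 rows had none. The rows are the insertions of the reference strain, S288C, and W303 may lack some of them or hold others. A further 18 rows overlap another row on their own strand, among them YILWTy3-1, by 873 bases with YIL082W, and YCLWTy5-1, by 744 bases with YCL076W. Reads counted on S. cerevisiae mRNAs, which set the library sizes, ranged from 1337088 to 11939647.

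The labels of the states and strains were checked first. FUS1, a gene of cell fusion induced by pheromone, stood at 960 to 1920 CPM (the count scaled to library size, which is the number of S. cerevisiae mRNA reads after TMM scaling) in the G1 libraries and at 4.71 to 34.1 in all others. AGA1, which codes for the anchor of a-agglutinin, stood at 6692 or more in G1 and at 208 or less elsewhere. RRP6 stood at 3.18 to 20.1 CPM in the rrp6Δ libraries and at 79.9 to 275 in the others. The Nab3-AID label could not be checked in this way, since auxin acts on the tagged protein and RNA does not show its loss. NAB3 RNA stood at 551 to 845 CPM in Nab3-AID and at 760 to 999.7 CPM in OsTIR-AID libraries. Quiescent libraries were high in SPG1, a gene of stationary phase, at 419 to 22017 CPM, and the low end of that range was in Nab3-AID. SPG1 stood at 0.400 to 4.03 CPM in G1 and at 2 h before the shift. At 48 h after the shift it was as high as in quiescence, at 6914 and 7994 CPM in wild-type and 3918 and 4823 CPM in rrp6Δ cells. HSP26, a heat shock protein gene, stood at 12930 and 14611 CPM in wild-type cells at 24 h, above its quiescent range of 329 to 5867.5. These markers thus do not set quiescence apart from the times after the shift. Reads of genes of Kluyveromyces lactis, another yeast, were counted in every library, and each comparison was also made with library sizes taken from them. The labels give neither its amount nor the step at which it was added. That scaling moved the median of all rows by up to 4.41 on the log2 scale, so each count over all Ty rows below is given with the count under K. lactis scaling beside it. The share of all rows called under K. lactis scaling is not given here. A count under that scaling therefore does not by itself set Ty rows apart from other rows.

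In G1 cells the RNA of the Ty families differed widely in amount. Per kilobase, YILWTy3-1 (chromosome IX, 205220 to 210647, plus strand) had a mean of 5570 CPM in steady-state RNA of the first set. YGRWTy3-1 (chromosome VII, 707195 to 712545, plus strand), the other Ty3 copy, had 853 CPM per kilobase. The highest Ty1 row was YNLWTy1-2 (chromosome XIV, 519163 to 525062, plus strand), at 833 CPM per kilobase, and the highest Ty2 row was YDRWTy2-3 (chromosome IV, 981171 to 987125, plus strand), at 215. The Ty5 row YCLWTy5-1 (chromosome III, 1179 to 4322, plus strand) stood at 52.3 and the Ty4 row YJLWTy4-1 (chromosome X, 197545 to 203768, plus strand) at 25.4 CPM per kilobase. The median Ty1 row stood far lower than its best row, at 16.8 CPM per kilobase, with the caveat that rows share sequence to unequal extents. Family sums of unique reads in these 2 libraries were 33482 and 36110.0 CPM for Ty3 and 14594 and 15175 CPM for Ty1.

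**Figure D1:**
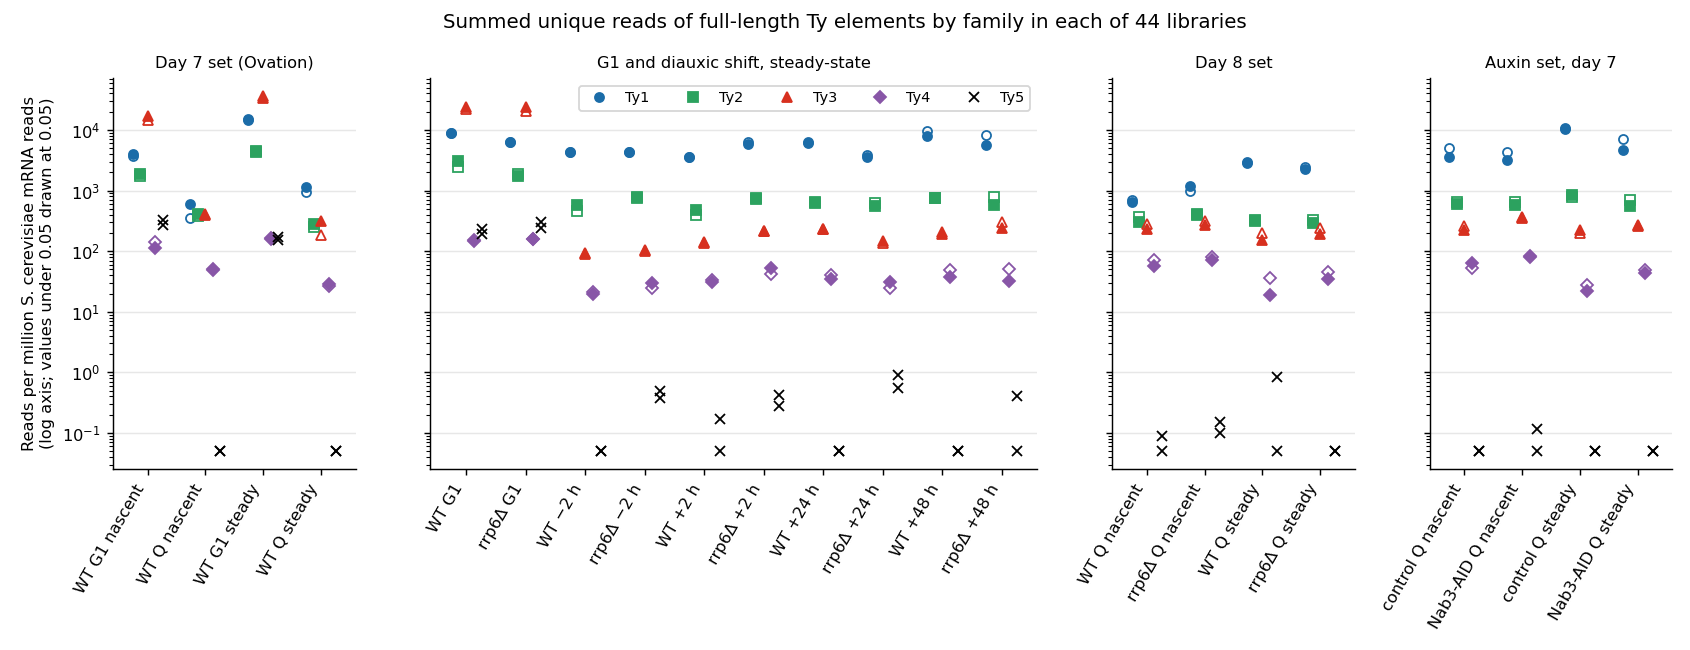
Summed unique reads of the elements of each Ty family, in CPM on a log axis, for each of the 44 libraries, with values under 0.05 drawn at 0.05. Ty3 sums lie at 14563 CPM or above in every G1 library and between 90.9 and 415 CPM in all others, and Ty5 is at 0 or near it outside G1.

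Quiescent wild-type cells held far less Ty3 RNA than G1 cells, in steady-state and in nascent RNA, and this held under K. lactis scaling. The steady-state level of YILWTy3-1 was 28990.0 and 31474 CPM in the G1 replicates and 231 and 130.1 CPM in the quiescent ones. The nascent level was 14226 and 12441 CPM in G1 and 299 and 304 CPM in quiescence. The groups were far apart in both kinds of RNA. YILWTy3-1 fell by 7.38 ± 0.48 on the log2 scale (standard error, n = 2 per group, edgeR adjusted p = 1.9e-06) in steady-state RNA, and its nascent level fell by 5.47 ± 0.44 (edgeR adjusted p = 1.8e-05). YGRWTy3-1 moved the same way, from 4492 and 4636 CPM to 86.8 and 51.3 CPM in steady-state RNA, a log2 change of -6.04 ± 0.35 (edgeR adjusted p = 1.2e-06). With K. lactis scaling the steady-state log2 changes were -7.61 and -6.28. In bulk RNA, fewer cells that make a transcript and less of it per cell cannot be told apart. Of these cells only those in G1 had been given α factor, so pheromone and state cannot be told apart either. The same holds for every comparison of quiescence with G1 below.

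Ty1 and Ty2 elements fell as well, by less. The sum over Ty1 elements was 14594 and 15175 CPM in G1 and 955 and 1137 CPM in quiescence, 0.07 times the G1 mean. The sum over Ty2 elements was 4250.2 and 4419 CPM in G1 and 251 and 286 CPM in quiescence, 0.062 times the G1 mean. Single elements followed the sums. YNLWTy1-2 went from 4925 and 4899 CPM to 177 and 185 CPM in steady-state RNA, a log2 change of -4.76 ± 0.32 (edgeR adjusted p = 2.4e-06). YDRWTy2-3 went from 1236 and 1329.6 CPM to 33.8 and 34.5 CPM, a log2 change of -5.23 ± 0.20 (edgeR adjusted p = 4.6e-07). In nascent RNA the same elements changed by -3.94 ± 0.31 and -3.44 ± 0.18 (edgeR adjusted p = 1.6e-05 and 2.3e-06), and the replicate values of the states did not overlap.

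Of the rarer families, the Ty4 row YJLWTy4-1 fell by 2.67 ± 0.19 on the log2 scale in steady-state RNA (edgeR adjusted p = 2.7e-06), from 156 and 160.5 CPM to 25.5 and 24.3 CPM. The other Ty4 rows, YHLWTy4-1 (chromosome VIII, 85539 to 91761, plus strand) and YPLCTy4-1 (chromosome XVI, 436890 to 443112, minus strand), lay between 0.687 and 2.23 CPM in all 4 steady-state libraries and did not pass the test. Ty5 was read in G1 cells and hardly anywhere else. YCLWTy5-1 stood at 173 and 156 CPM in G1 and at 0 in both quiescent libraries, at least 309-fold lower against a floor of 3 counts over the group. In nascent RNA it stood at 332 and 267 CPM in G1 and again at 0 in quiescence, at least 2062-fold lower. Across the other sets this row stayed at 0.915 CPM or less in every library outside G1.

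Counted over rows, 216 of the 334 passed the filter on low counts in the first set, and a row with reads in a single state passed through that state, so the counts describe those rows only. In steady-state RNA 66 were higher and 100 lower in quiescence, against 36.7% higher and 38.1% lower of all rows tested, and with K. lactis scaling 37 were higher and 93 lower. None of the 49 element rows was higher and 44 were lower, with 43 lower under K. lactis scaling. Their median log2 change was -3.82, while that of all rows was -0.02. By family 27 of 30 Ty1 rows, 13 of 13 Ty2 rows, both Ty3 rows, 1 of 3 Ty4 rows and the Ty5 row were lower. In nascent RNA 74 rows were higher and 99 lower, against 28.5% higher and 33.9% lower of all rows, and with K. lactis scaling, which moved the median of all rows by -4.41, this became 2 higher and 168 lower. The element rows again went a single way, with 45 lower and none higher, and 49 lower under K. lactis scaling. All log2 changes of named elements in these comparisons kept their call with any library left out. With 2 samples per group, leaving out a library leaves a group of 1, which is then assumed to vary like the other groups of its set, here and wherever a library is left out below.

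**Figure D2:**
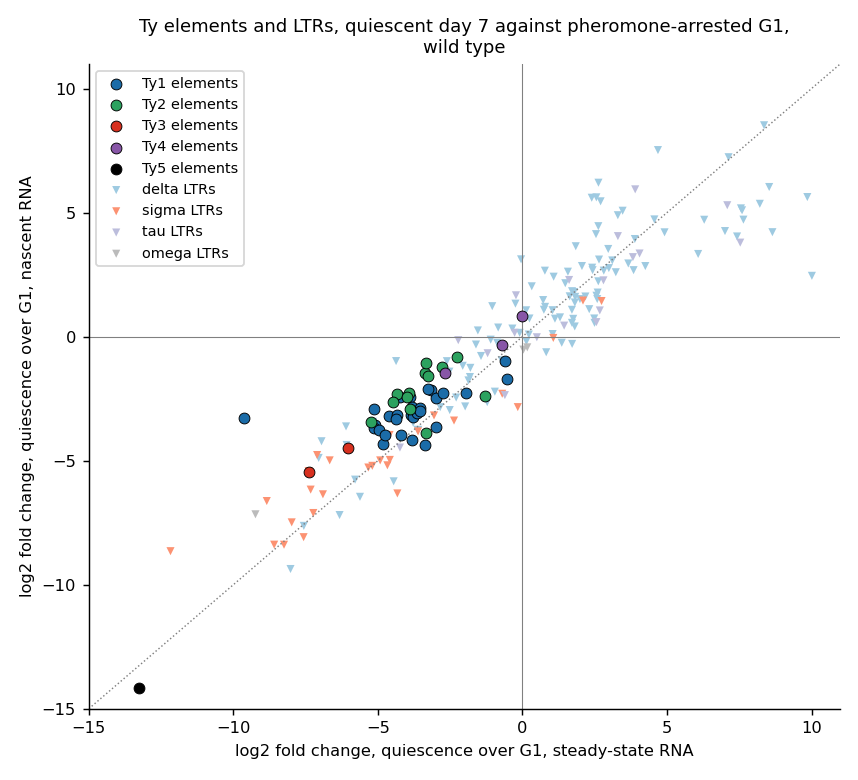
Log2 change between quiescent and G1 wild-type cells of each Ty row tested, steady-state RNA on the x axis and nascent RNA on the y axis, with elements and LTRs of each family marked apart. Elements lie in the lower left corner or near the origin, with YILWTy3-1 at -7.38 and -5.47, while delta and tau LTRs spread to both sides of 0.

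Nascent and steady-state RNA were then set against each other within each state. In G1 cells 5 Ty rows were higher and 59 lower in nascent than in steady-state RNA, against 12.8% higher and 15.6% lower of all rows, whereas with K. lactis scaling 77 were higher and none was lower, so the direction here rests on the scaling. Relative to other S. cerevisiae transcripts, 27 of 30 Ty1 rows were lower in nascent RNA, with a median log2 difference of -1.80. With K. lactis scaling none was called either way, at a median of 0.22. K. lactis reads differed between the G1 replicates, at 245829 and 473895 in nascent and 356164 and 608704 in steady-state RNA. The part of that spread in the loss of calls was not tested. YNLWTy1-2, with the nascent and steady-state levels already given, differed by -1.997 ± 0.28 (edgeR adjusted p = 0.0016), and by -0.0043 with K. lactis scaling. YMRCTy1-3 (chromosome XIII, 357005 to 362918, minus strand) stood at 449.7 and 393 CPM in nascent and 2149.7 and 2070.3 CPM in steady-state RNA, a log2 difference of -2.32 ± 0.29 (edgeR adjusted p = 0.00079) that was -0.31 with K. lactis scaling. The Ty3 rows differed by -1.18 ± 0.37 and -0.98 ± 0.28 (edgeR adjusted p = 0.043 for YILWTy3-1 and 0.034 for YGRWTy3-1), turned to 0.85 and 1.05 with K. lactis scaling, and lost the call when any of the 4 G1 libraries was left out. Without each of these libraries in turn YILWTy3-1 ranged from -1.28 to -1.09. YCLWTy5-1 was the exception among elements, at 0.87 ± 0.19 (edgeR adjusted p = 0.018), and this call was also lost without any of the G1 libraries. The count of 64 rows called was 21 to 32 with a G1 library left out.

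In quiescent cells 16 Ty rows were higher and 42 lower in nascent RNA, against 28.3% higher and 23.8% lower of all rows, and with K. lactis scaling none was higher and 134 were lower. Ty1 again stood lower, in 17 of 30 rows and in 28 with K. lactis scaling, and YNLWTy1-2 differed by -1.18 ± 0.28 (edgeR adjusted p = 0.008) from levels of 101 and 59.4 CPM in nascent and 177 and 185 CPM in steady-state RNA. YJLWTy4-1 stood higher in nascent RNA, at 43.7 and 45.1 CPM against 25.5 and 24.3 CPM, by 0.83 ± 0.18 (edgeR adjusted p = 0.0052), and at -1.27 with K. lactis scaling. The Ty3 rows did not pass, with YILWTy3-1 at 0.74 ± 0.37 (edgeR adjusted p = 0.13).

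The difference between the nascent and the steady-state change was itself tested. It was positive, meaning a smaller loss or larger gain in nascent RNA, for 24 Ty rows and negative for 7, against 20% and 17% of all rows, and with K. lactis scaling it was positive for none and negative for 168. The positive rows held 18 elements, of them 9 Ty2, 6 Ty1, both Ty3 and YJLWTy4-1. YCLWTy2-1 had a difference of 2.04 ± 0.23 (edgeR adjusted p = 0.00077), since its level went from 492 in both G1 replicates to 25.2 and 23.0 CPM in steady-state RNA but from 138 and 124 to 26.2 and 26.8 CPM in nascent RNA. YDRWTy2-3 had 1.79 ± 0.24 (edgeR adjusted p = 0.0015) and YILWTy3-1 had 1.92 ± 0.52 (edgeR adjusted p = 0.02), and these 3 were -2.08, -2.32 and -2.31 with K. lactis scaling. YNLWTy1-2 did not pass, at 0.81 ± 0.39 (edgeR adjusted p = 0.14). The call of YILWTy3-1 was lost without any of the G1 libraries, at 1.82 to 2.02. The count of 31 rows was 15 without G1 nascent replicate 2, 17 and 20 without G1 steady-state replicates 1 and 2, and 48 without quiescent steady-state replicate 1.

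Solo LTRs did not move as a block. In steady-state RNA of quiescent cells 3 of 28 sigma rows tested were higher and 24 lower, with a median log2 change of -5.06. Under K. lactis scaling that was 1 higher and 23 lower. Among delta rows 53 were higher and 28 lower of 116, beside 36.7% higher and 38.1% lower of all rows, with a median of 1.60, and with K. lactis scaling 29 were higher and 24 lower. Tau rows were higher in 10 and lower in 2 of 18, and with K. lactis scaling in 7 and 1. In nascent RNA delta rows were higher in 63 and lower in 24, and tau rows were higher in 9 and lower in 2, but with K. lactis scaling 2 delta rows were higher and 74 lower and 12 tau rows were lower and none higher, so the nascent direction of these LTRs rests on the scaling. Sigma rows in nascent RNA were higher in 2 and lower in 25, and with K. lactis scaling lower in all 28 tested.

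Single LTRs showed changes as large as those of the elements. YPRWsigma3 stood at 66.7 and 86.1 CPM in G1 and at 0 in both quiescent libraries of steady-state RNA, at least 144-fold lower. YDRCsigma3 went from 135 and 209 CPM to 0 and 0.885 CPM, 486-fold lower with a 95% counting interval of 134 to 4013. Both groups were apart in each case. In the other direction YJRWdelta20 (chromosome X, 543448 to 543770, plus strand) went from 0.229 and 0 CPM in G1 to 29.6 and 56.2 CPM in quiescence, 356-fold higher with an interval of 63.3 to 14133. It was also higher in nascent RNA, at 22.0 and 19.2 CPM against 0.0796 and 0 CPM, and under K. lactis scaling its log2 changes were 8.08 and 4.60. YILCdelta1 went from 0 in both G1 libraries to 21.3 and 12.4 CPM, at least 52.3-fold higher in steady-state RNA.

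Delta rows differed by what lies upstream of them. The 10 of 211 delta rows with a sigma LTR on the same strand within 1000 bases upstream were set apart after the values were seen. Of the 9 tested, 7 were lower in quiescence in steady-state RNA and 1 was higher, and their median log2 change was -5.79, close to the sigma median. Among the other 107 delta rows tested, 52 were higher and 21 lower, with a median of 1.72. Scaled to K. lactis, 7 of the 9 were lower and none higher, and of the others 29 were higher and 17 lower. In nascent RNA 8 of the 9 were lower, with a median of -5.76, against 16 of 107 of the others, and with K. lactis scaling 9 of 9 and 65 of 107 were lower. YGLCdelta5 (chromosome VII, 319009 to 319341, minus strand) lies next to YGLCsigma1 (319423 to 319762, minus strand). Its level was 738 and 614 CPM in G1 and 14.5 and 12.8 CPM in quiescence. The sigma LTR stood at 407 and 376 CPM and at 13.6 and 7.08 CPM in the same libraries, so the neighbours were high and low in the same samples. In nascent RNA YDRWdelta10 (chromosome IV, 668543 to 668784, plus strand), downstream of YDRWsigma2 (668096 to 668436), went from 124 and 153 CPM to 0.105 and 0.269 CPM, a log2 change of -9.37 ± 0.36 (edgeR adjusted p = 8.6e-07). The counts do not tell reads that start in the sigma LTR from reads that start in the delta LTR.

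**Figure D3:**
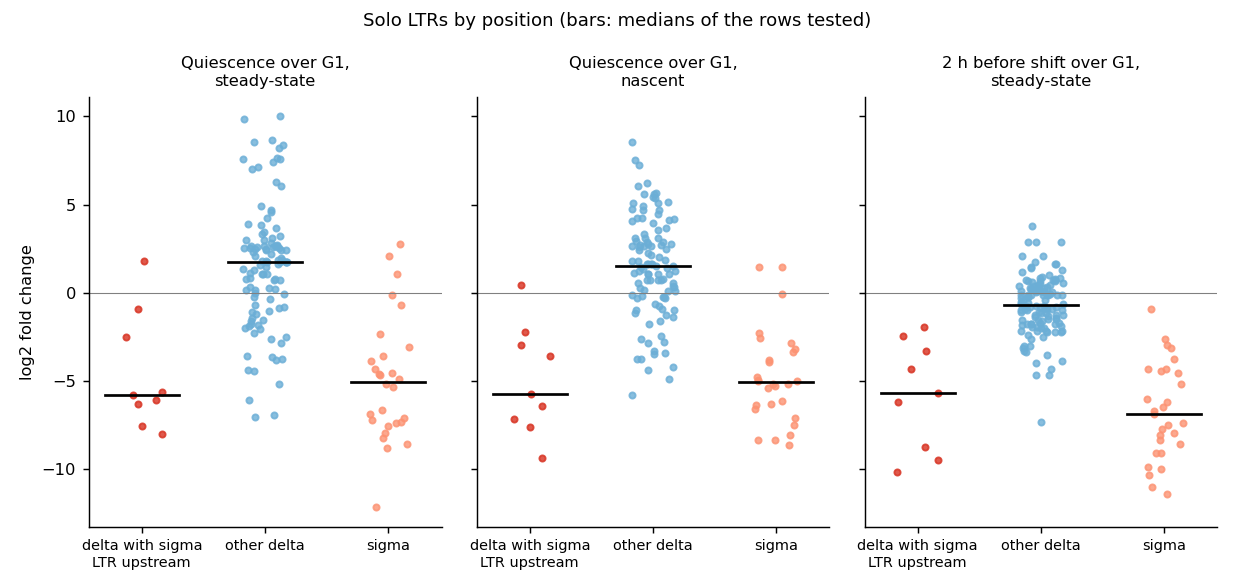
Log2 change in wild-type cells for delta LTRs with a sigma LTR upstream on the same strand, other delta LTRs and sigma LTRs, with bars at the medians of the rows tested. The panels show quiescence over G1 in steady-state RNA, the same in nascent RNA, and 2 h before the diauxic shift over G1 in steady-state RNA. For quiescence over G1 in steady-state RNA the medians are -5.79, 1.72 and -5.06, and the grouping was made after the values were seen.

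Host genes known to act on Ty RNA were read in the same libraries. STE12, which codes for the pheromone-response factor that binds Ty1 and sigma LTRs, stood at 214 and 233 CPM in G1 and 97.7 and 68.2 CPM in quiescent steady-state RNA. It fell by 1.43 ± 0.22 on the log2 scale (edgeR adjusted p = 0.00033). TEC1, which codes for its partner at Ty1, went from 264 and 278 CPM to 93.3 and 43.4 CPM, a log2 change of -1.97 ± 0.34 (edgeR adjusted p = 0.00067). In nascent RNA they changed by -1.63 ± 0.21 and -1.59 ± 0.33 (edgeR adjusted p = 0.00027 and 0.0029). TEA1, which codes for an activator of Ty1, changed by -3.03 and -2.65 in steady-state and nascent RNA, and GCR1, a factor at Ty2, by -2.64 and -1.31. All of these log2 changes passed the test. In the list of 20 regulators of Ty transcription, steady-state RNA was higher for 9 and lower for 6 and nascent RNA for 5 and 5. STE12, TEC1, TEA1 and GCR1 are all on the lower side. Other regulators of that list went the other way in steady-state RNA. SWI1 stood at 153 and 156 CPM in G1 and 1338 and 1185 CPM in quiescence, and SNF2 at 249 and 263 CPM and 1201 and 1433 CPM. Of 20 genes of RNA decay and copy control, steady-state RNA was higher for 11 and lower for 5, and nascent RNA for 3 and 5. Under K. lactis scaling the regulators had 2 higher and 5 lower and the decay and copy control genes none and 2 in steady-state RNA, and all 20 of each list were lower in nascent RNA. DHH1, which codes for a decapping activator, was higher by 1.83 in steady-state and 1.02 in nascent RNA. The background of these counts is the same as for the Ty rows, and K. lactis scaling moves the median of all rows by -0.32 in steady-state and -4.41 in nascent RNA, more than the nascent rise of any host gene named here.

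Wild-type cells at 2 h before the diauxic shift, with glucose still present, already held little Ty3 RNA compared with G1 cells. YILWTy3-1 stood at 22043 and 20114 CPM in G1 and at 69.7 and 68.6 CPM at 2 h before the shift, a log2 change of -8.25 ± 0.15 (edgeR adjusted p = 4.5e-22). YGRWTy3-1 went from 2343 and 2089.6 CPM to 22.5 and 22.2 CPM, a change of -6.63 ± 0.12 (edgeR adjusted p = 4.5e-22). YDRWTy2-3 fell by 3.67 ± 0.12 (edgeR adjusted p = 1.7e-17) and YNLWTy1-2 by 1.80 ± 0.15 (edgeR adjusted p = 1.4e-09), the latter from 3192 and 3136 CPM to 902 and 914 CPM. No group overlapped another here. Over all rows 3 were higher and 126 lower of 231 tested, against 25.6% higher and 28% lower of all rows, and with K. lactis scaling 4 and 121. Of 29 sigma rows tested 28 were lower and none higher, with a median log2 change of -6.90, and K. lactis scaling gave the same count. YGLCsigma1 went from 437 and 424 CPM to 0.133 and 0.525 CPM, and YGLCdelta5 beside it from 1076 and 1084 CPM to 0.933 and 0.875 CPM. The 9 delta rows with a sigma LTR upstream that were tested were all lower, with log2 changes from -10.18 to -1.94. The G1 cells had been given α factor and all wild-type G1 libraries of this set belong to another batch than the libraries at 2 h before the shift, so pheromone, growth state and batch cannot be told apart here.

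Through the shift Ty3 rose from its low point in CPM, and the Ty1 sum was lower at 2 h after than at 2 h before the shift and above both at 24 h and 48 h. The Ty1 sum stood at 4369 and 4404 CPM at 2 h before, 3562 and 3615 at 2 h after, 6098 and 6280.4 at 24 h and 7965 and 9459 CPM at 48 h. YILWTy3-1 stood at 101 and 97.4 CPM at 2 h after, 182 and 178 CPM at 24 h and 158 and 168 CPM at 48 h. It rose by 0.52 ± 0.12 between 2 h before and 2 h after the shift (edgeR adjusted p = 0.00055) and by 0.85 ± 0.12 between 2 h and 24 h after (edgeR adjusted p = 2.2e-06), and with K. lactis scaling these steps were -0.42 and -0.56. YNLWTy1-2 stood at 860.2 and 889.8 CPM at 2 h after, 1503 and 1622 CPM at 24 h and 1891 and 2393 CPM at 48 h. Its step from 2 h to 24 h was 0.84 ± 0.15 (edgeR adjusted p = 4.2e-05) and from 24 h to 48 h 0.45 ± 0.14 (edgeR adjusted p = 0.0086), and these were -0.58 and -0.88 with K. lactis scaling. The last step lost its call without wild-type 24 h replicate 1, at 0.40, and without wild-type 48 h replicate 2, at 0.27. YDRWTy2-3 stood at 55.9 and 46.4 CPM at 2 h after, 81.1 and 76.8 CPM at 24 h and 120.5 and 98.3 CPM at 48 h, all far below its G1 level. Relative to other S. cerevisiae RNA these elements were thus higher at 48 h than at 2 h before the shift, while relative to K. lactis reads each step after the shift was downward for YILWTy3-1, YNLWTy1-2 and YDRWTy2-3.

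By counts, 64 rows were higher and 24 lower at 2 h after than at 2 h before the shift, against 40% higher and 35.7% lower of all rows, and with K. lactis scaling 25 and 80. Elements made up 4 of the higher and 16 of the lower rows, with 1 Ty1 row higher and 11 lower, and 60 of the higher rows were LTRs. Between 2 h and 24 h after the shift 61 rows were higher and 6 lower, against 32.4% and 26.1% of all rows, and with K. lactis scaling 7 and 102. That step held 15 Ty1 rows higher and none lower, which became 4 higher and 14 lower with K. lactis scaling. Between 24 h and 48 h 49 were higher and 24 lower, against 32.4% and 37.6% of all rows, and with K. lactis scaling 5 and 135. The count of 73 rows in that step was 44 without wild-type 48 h replicate 1 and 47 without wild-type 24 h replicate 1. YJRWdelta20, at 0 in both G1 libraries, stood at 0 and 0.350 CPM at 2 h before the shift, 2.50 and 2.25 at 2 h after, 6.79 and 6.82 at 24 h and 72.9 and 70.7 CPM at 48 h. Its step from 24 h to 48 h was 3.40 ± 0.22 (edgeR adjusted p = 7.4e-12), and 2.02 with K. lactis scaling. STE12 stood at 248 and 225 CPM in G1, 129 and 120.3 at 2 h before, 35.0 and 29.4 at 2 h after, 58.5 and 62.0 at 24 h and 53.8 and 41.0 CPM at 48 h, so in CPM it was lowest just after the shift. TEC1 stood at 207 and 205 CPM in G1, 55.7 and 62.0 at 2 h before, 81.8 and 98.6 at 2 h after, 116 and 112 at 24 h and 150.3 and 166 CPM at 48 h, with its lowest CPM before the shift.

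**Figure D4:**
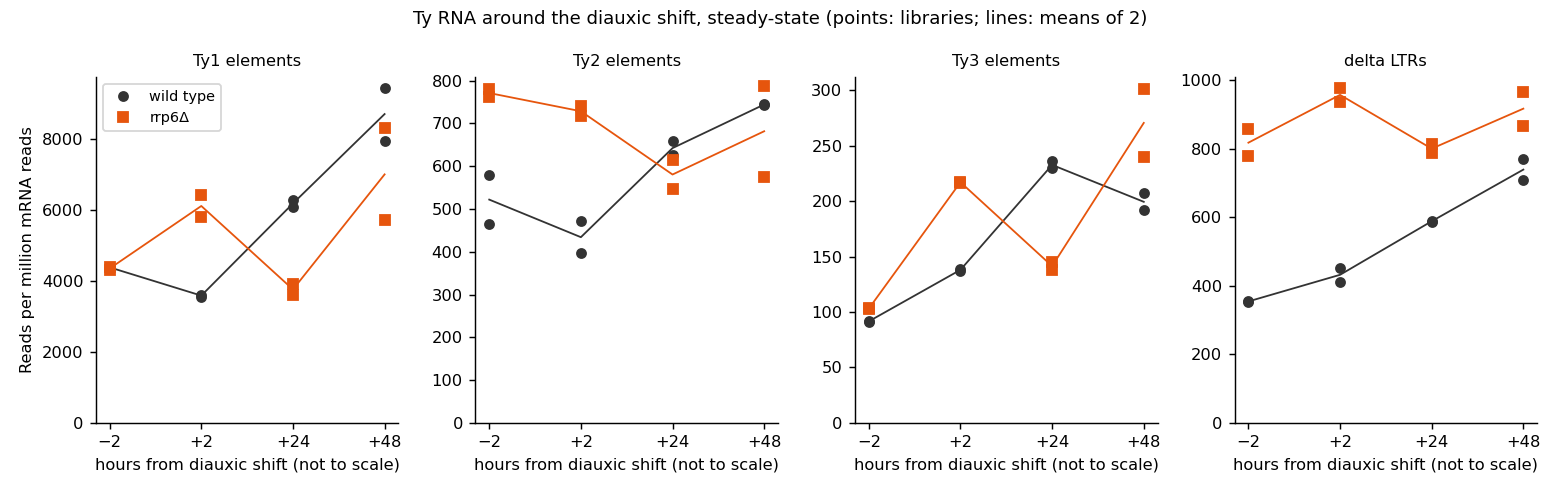
Summed unique reads in CPM of Ty1, Ty2 and Ty3 elements and of delta LTRs, on linear axes, for wild-type and rrp6Δ cells. The x axis gives hours from the diauxic shift (-2, 2, 24 and 48), not to scale, with points for replicates and lines through their means. Wild-type Ty1 goes from 4369 and 4404 CPM before the shift to 7965 and 9459 CPM at 48 h, and in Ty1 the strains cross between 2 h and 24 h. Per K. lactis read the wild-type steps go down for the best-read elements, and Ty1 rows are higher in rrp6Δ at 24 h.

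Rrp6 is a nuclease of the nuclear exosome, which trims and degrades many noncoding RNAs. In rrp6Δ G1 cells the Ty3 rows did not pass the test, most Ty2 and part of the Ty1 rows stood lower than in wild-type cells, and many LTR rows stood higher. YILWTy3-1 stood at 21599 and 18474 CPM in rrp6Δ and 22043 and 20114 CPM in wild-type cells, a difference of -0.07 ± 0.11 (edgeR adjusted p = 0.6) with overlapping groups. YNLWTy1-2 stood at 2125 and 2088 against 3192 and 3136 CPM, a log2 change of -0.59 ± 0.14 (edgeR adjusted p = 0.002). YDRWTy2-3 stood at 498 and 531 against 763 and 730.4 CPM, a log2 change of -0.54 ± 0.10 (edgeR adjusted p = 0.00017). Under K. lactis scaling those changes were -0.49 and -0.44. Of 231 rows tested 100 were higher and 28 lower, against 26.2% higher and 22.4% lower of all rows, and 104 and 24 with K. lactis scaling. Among elements 3 were higher and 22 lower, with 13 of 29 Ty1 rows and 9 of 13 Ty2 rows lower, and with K. lactis scaling 3 and 19, with 10 Ty1 and 9 Ty2 rows lower. Among LTRs 97 were higher and 5 lower of 182, with a median log2 difference of 0.97 against 0.03 for all rows, and with K. lactis scaling 101 and 4.

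The LTR rows with the largest rise in rrp6Δ G1 cells were sigma and delta rows. YDRWsigma5 stood at 172 and 144 CPM in rrp6Δ and 9.10 and 5.04 CPM in wild-type cells, a log2 difference of 4.47 ± 0.16 (edgeR adjusted p = 5.6e-16). YLRCsigma1 stood at 9.33 and 5.98 against 0.325 and 0 CPM, 45.9-fold higher with a counting interval of 12.4 to 383. YCLWdelta3 stood at 4.15 and 3.30 against 0 and 0.174 CPM, 44.5-fold higher with an interval of 7.69 to 1783. The last 2 are rows with few reads, as the wide intervals show. The sum over sigma LTRs was 5056 and 6077 CPM in rrp6Δ and 3419.9 and 3532 CPM in wild-type G1 cells, and 23 of 29 sigma rows were higher and 1 lower, with 24 and 1 under K. lactis scaling. YDRWdelta7 was among the delta rows that were high in rrp6Δ throughout: at 11.3 and 11.6 CPM against 0.325 and 0.696 CPM in G1 and at 19.9 and 17.6 CPM against 0.533 and 0.175 CPM at 2 h before the shift. The latter difference was 5.55 ± 0.36 (edgeR adjusted p = 1.3e-11).

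Around the shift the strains diverged in a way that changed with time. At 2 h before the shift 120 rows were higher in rrp6Δ and none was lower, against 31.5% higher and 30.6% lower of all rows, and with K. lactis scaling 88 were higher and 11 lower. LTRs made up 105 of them. At 2 h after the shift 126 were higher and 1 lower, against 32.5% and 30.1% of all rows, which became 57 and 24 with K. lactis scaling. Here 19 Ty1 rows were higher and 1 lower, and under K. lactis scaling 9 and 7, so the rise of elements at this time rests partly on the scaling. YNLWTy1-2 stood at 1294 and 1531 CPM in rrp6Δ and 860.2 and 889.8 CPM in wild-type cells, a difference of 0.69 ± 0.14 (edgeR adjusted p = 0.00032), and -0.079 with K. lactis scaling. YILWTy3-1 stood at 163 and 168 against 101 and 97.4 CPM, a difference of 0.73 ± 0.12 (edgeR adjusted p = 1.5e-05), and -0.036 with K. lactis scaling. The Ty1 row that was lower, YMRCTy1-3, stood at 353 and 423 against 639.8 and 690.5 CPM, a log2 change of -0.78 ± 0.15 (edgeR adjusted p = 0.00014) that was -1.55 with K. lactis scaling. STE12 stood at 58.3 and 77.4 against 35.0 and 29.4 CPM at this time, a difference of 1.06 ± 0.13 (edgeR adjusted p = 2.4e-07), where K. lactis scaling moves the median of all rows by -0.77.

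At 24 h after the shift 6 of 48 elements were higher and 18 lower in rrp6Δ, a share of lower rows near the 33.4% of all rows, and with K. lactis scaling 32 were higher and 1 lower. Of 29 Ty1 rows 2 were higher and 14 lower, both Ty3 rows were lower, and of 13 Ty2 rows 3 were higher and 1 lower. Relative to K. lactis reads these were 17 and none, 2 and none, and 10 and 1. YILWTy3-1 stood at 104 and 94.7 CPM in rrp6Δ and 182 and 178 CPM in wild-type cells, a log2 change of -0.85 ± 0.12 (edgeR adjusted p = 1.7e-06), and YNLWTy1-2 at 844 and 975 against 1503 and 1622 CPM, a change of -0.78 ± 0.14 (edgeR adjusted p = 7.9e-05). These were 0.56 and 0.62 with K. lactis scaling. In all, 50 rows were higher and 38 lower, against 31.8% and 33.4% of all rows, and with K. lactis scaling 172 and 2. The median log2 difference of all rows under that scaling was 1.41. The rrp6Δ replicates at 48 h belong to different batches, and wild-type replicate 1 sums columns of both batches. In rrp6Δ replicates 1 and 2 the share of reads aligned to several places was 68.9% and 52.6%, and the Ty1 sum was 5710 and 8309 CPM. The part of batch was not tested, here or in the change up to 48 h. At 48 h 34 rows were higher and 9 lower, against 19.6% and 26.2% of all rows. With K. lactis scaling these were 118 and none, with the median log2 difference of all rows at 0.79. The 2 Ty3 rows were among those higher, YGRWTy3-1 by 0.72 ± 0.15 (edgeR adjusted p = 0.00039), with 52.7 and 65.3 CPM in rrp6Δ and 34.0 and 38.9 CPM in wild-type cells. YILWTy3-1 was higher by 0.38 ± 0.13 (edgeR adjusted p = 0.017), from 187 and 236 against 158 and 168 CPM, and lost the call without rrp6Δ replicate 2, at 0.21, or wild-type replicate 1, at 0.34. The count of 43 rows at 48 h was 23 without wild-type 48 h replicate 1. The change from 2 h before to 48 h after the shift was smaller in rrp6Δ than in wild-type cells for 41 rows and larger for none, against 26.7% and 22% of all rows, and with K. lactis scaling it was larger for 52 and smaller for 6. Without wild-type 48 h replicate 1 that count was 26.

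In quiescent cells of day 8 few Ty rows differed between rrp6Δ and wild-type cells. In steady-state RNA rrp6Δ replicate 2 sums columns of both batches. The share of reads aligned to several places was 57.7% and 77.9% in rrp6Δ replicates 1 and 2. In wild-type replicates 1 and 2 it was 66.6% and 65.3%. The part of batch or of this share was not tested. In this RNA 8 Ty rows were higher and 4 lower of 214 tested, against 5.25% higher and 7.29% lower of all rows. An unadjusted p under 0.05 was seen for 42 rows. Under the K. lactis scaling 95 were higher and none lower, with the median log2 difference of all rows at 1.18. YMRCTy1-3 stood at 139 and 145 CPM in rrp6Δ and 447 and 453 CPM in wild-type cells, a log2 change of -1.66 ± 0.15 (edgeR adjusted p = 0.00086) that was -0.52 with K. lactis scaling and kept its call with any library left out. YBLWTy1-1 stood at 274 and 325 against 543 and 522 CPM, a change of -0.83 ± 0.16 (edgeR adjusted p = 0.016), which turned to 0.32 with K. lactis scaling and lost its call without any of the 4 libraries, at -0.95 to -0.72. YJRWdelta20, the delta row that is high in quiescence, stood at 31.3 and 27.7 against 75.3 and 78.6 CPM, a change of -1.39 ± 0.19 (edgeR adjusted p = 0.0044), and its call was lost without rrp6Δ replicate 2, at -1.28. Ty3 did not stand apart: YILWTy3-1, at 143 and 187 against 119.6 and 156 CPM with overlapping groups, did not pass, at 0.26 ± 0.21 (edgeR adjusted p = 0.46).

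The 7 LTR rows that were higher in rrp6Δ had small counts. YDRWdelta7, already high in rrp6Δ around the shift, stood at 6.86 and 9.77 against 0 and 1.69 CPM, 9.70-fold higher with a counting interval of 2.55 to 82.2. YORWsigma4_YORWdelta22, the merged sigma and delta row, stood at 19.7 and 28.5 against 5.65 and 3.38 CPM, a difference of 2.44 ± 0.40 (edgeR adjusted p = 0.0088). Nearly all of these calls were lost when a library was left out, and the count of rows called fell from 12 to 1 without rrp6Δ replicate 2, to 4 without rrp6Δ replicate 1 and to 2 without either wild-type replicate. In nascent RNA 7 rows were higher and none lower, against 1.26% higher and 0.435% lower of all rows, with 51 at an unadjusted p under 0.05. With K. lactis scaling 3 were higher, and DESeq2 called 13, all higher. Of the 7, 6 were Ty1 elements, and the count was 2 without rrp6Δ replicate 1 or wild-type replicate 1 and 4 without wild-type replicate 2. YPRCTy1-4 stood at 124 and 103 CPM in rrp6Δ and 39.8 and 46.8 CPM in wild-type cells, a difference of 1.38 ± 0.18 (edgeR adjusted p = 0.011), and 1.34 with K. lactis scaling. YOLWTy1-1 stood at 172 and 125 against 58.7 and 56.2 CPM, a difference of 1.37 ± 0.19 (edgeR adjusted p = 0.014), and 1.31 with K. lactis scaling. Both kept their call without any single library. The sum over Ty1 elements was 986 and 1176 CPM in rrp6Δ and 643 and 692 CPM in wild-type nascent RNA, while in steady-state RNA it was 2257 and 2434 against 2798 and 2915 CPM, so the order of the strains differed between the kinds of RNA. That difference itself was not tested.

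Nab3 is a subunit of the complex with Nrd1 and Sen1 that ends transcription of short noncoding RNAs. In quiescent cells with auxin, Nab3-AID cells had less steady-state RNA from part of the Ty1 rows and more from part of the LTR rows than OsTIR-AID control cells, and the Ty1 direction turned with the scaling. The shares of lower Ty1 rows and of higher LTR rows were near those of all rows. Of 169 rows tested 50 were higher and 29 lower, against 32.3% higher and 30.4% lower of all rows. With K. lactis scaling these were 116 and 3, with the median log2 difference of all rows at 1.79. Without control replicate 1 the count of 79 rows called either way was 48. Ty1 rows were higher in none and lower in 10 of 28, a share of lower rows near the 30.4% of all rows. With K. lactis scaling 12 Ty1 rows were higher and 1 lower. The row that was lower under either scaling was YMLWTy1-2 (chromosome XIII, 196332 to 202234, plus strand). It stood at 37.2 and 50.2 CPM in Nab3-AID and 378 and 443 CPM in control cells, a log2 change of -3.25 ± 0.22 (edgeR adjusted p = 3.6e-07), and -1.59 with K. lactis scaling. In nascent RNA it stood at 25.4 and 26.4 against 103 and 159 CPM, a change of -2.33 ± 0.20 (edgeR adjusted p = 2.5e-06), and -1.18 with K. lactis scaling. YNLWTy1-2 stood at 479 and 1026 against 2178 and 2094 CPM, with replicates of Nab3-AID far apart, and did not pass, at -1.51 ± 0.52 (edgeR adjusted p = 0.06). It passed without Nab3-AID replicate 2, at -2.16 (edgeR adjusted p = 0.024).

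Of the other families in steady-state RNA, 2 of 12 Ty2 rows were higher and 3 lower, and both Ty3 rows and 1 of 3 Ty4 rows were higher. Scaled to K. lactis, 9 Ty2 rows, both Ty3 rows and all 3 Ty4 rows were higher and none was lower. YDRWTy2-3 stood at 75.3 and 82.2 CPM in Nab3-AID and 136 and 111 CPM in control cells, a log2 change of -0.65 ± 0.14 (edgeR adjusted p = 0.00087), which was 1.02 with K. lactis scaling. YILWTy3-1 stood at 215 in both Nab3-AID replicates and at 184 and 168 CPM in control cells, higher by 0.29 ± 0.11 (edgeR adjusted p = 0.035), and lost the call without any of the 4 libraries, at 0.23 to 0.34. In nascent RNA it stood at 280.4 and 291 against 169.9 and 195 CPM, a difference of 0.65 ± 0.10 (edgeR adjusted p = 3e-05), with 1.75 under K. lactis scaling. YPLCTy4-1, a Ty4 row with few reads, stood at 13.1 and 10.3 against 4.22 and 2.74 CPM in nascent RNA, a difference of 1.70 ± 0.29 (edgeR adjusted p = 9.2e-05). In all, nascent RNA had 79 rows higher and 12 lower, against 35.7% higher and 32.9% lower of all rows. With K. lactis scaling these were 117 and 1, with the median log2 difference of all rows at 1.11. The libraries of the strains also differed in quiescence markers: SPG1 was lower in Nab3-AID by a log2 change of -4.16 in steady-state and -3.57 in nascent RNA, and HSP26, a heat shock protein gene, by -2.15 and -1.97. The share of reads aligned to several places was 50.3% to 55.0% in Nab3-AID and 68.2% to 71.9% in control steady-state libraries. The part of either in these differences was not tested.

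More LTR rows were higher than lower in Nab3-AID, in both kinds of RNA and under either scaling. In steady-state RNA 45 were higher and 16 lower of 123, with a median log2 difference of 0.68, and the share that was higher is near the 32.3% of all rows. In nascent RNA 70 were higher and 8 lower of 123, against 35.7% and 32.9% of all rows, with a median of 1.16. With K. lactis scaling these were 89 and 2 and 94 and 0. The sum over sigma LTRs was 153 and 181 CPM in Nab3-AID and 72.0 and 80.2 CPM in control steady-state RNA. YMRCdelta14 stood at 23.3 and 28.2 CPM in Nab3-AID nascent RNA and 0.844 and 0.608 CPM in control cells, a difference of 5.04 ± 0.38 (edgeR adjusted p = 2e-08). YCRCdelta6 stood at 7.15 and 5.81 CPM against 0 in both control steady-state libraries, at least 3.92-fold higher. YJRWdelta20, the delta row high in quiescence that is described above, went the other way. It stood at 17.8 and 20.3 against 39.3 and 43.5 CPM in nascent RNA, a log2 change of -1.12 ± 0.16 (edgeR adjusted p = 1.3e-05) that was -0.029 with K. lactis scaling.

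The replicates of Nab3-AID, strains 7716 and 7718, differed from each other at particular Ty rows in both of their library pairs. This was looked for after the values were seen. Rows with at least 10 reads in at least 1 library of every pair of a genotype were set against the rule that the replicates differ by 1.5-fold or more in the same direction in every pair. For Nab3-AID, with 2 pairs, 18 of 158 Ty rows (11.4%) met it, against 51 of 6124 other rows (0.833%), with 3 higher in strain 7716 and 15 in strain 7718. The Ty1 sum as a whole was higher in strain 7718, at 7038 against 4635 CPM in steady-state and 4273 against 3170 CPM in nascent RNA (strain 7716 second), and how many of the 15 rows lie past the threshold through that shift of the family was not tested. For OsTIR-AID, also with 2 pairs, 3 of 70 Ty rows (4.29%) and 46 of 5199 other rows (0.885%) did. For rrp6Δ, with 7 pairs, 1 of 106 Ty rows and none of 5695 other rows did, and for wild-type cells, with 11 pairs, none of 48 and none of 5224. The numbers of pairs differ, so these shares are set side by side only between the strains with auxin.

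YDRCTy1-2 (chromosome IV, 878303 to 884220, minus strand) stood at 516 and 71.0 CPM in nascent RNA of strains 7716 and 7718, a ratio of 7.27. In steady-state RNA it stood at 685 and 99.6 CPM, a ratio of 6.87. The ratio was thus nearly the same in separate libraries of the same strains. YLR035C-A, the row with no element name, had ratios of 4.65 and 2.79, and YLRCTy2-2 (chromosome XII, 976258 to 981700, minus strand) of 3.06 and 2.62. YNLWTy1-2 was the other way, at 0.536 and 0.466, as was YLRWTy2-1 at 0.331 and 0.294. In rrp6Δ the row that met the rule was again YLRCTy2-2, with ratios between strains 7079 and 7078 of 1.88 to 2.87. YLRCTy2-2 met it in the OsTIR-AID control too, with ratios between strains 6125 and 6126 of 0.375 in nascent and 0.454 in steady-state RNA. Which insertions each strain carries is not given by the labels, and a comparison of genotypes at these rows carries the difference between strains with it.

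**Figure D5:**
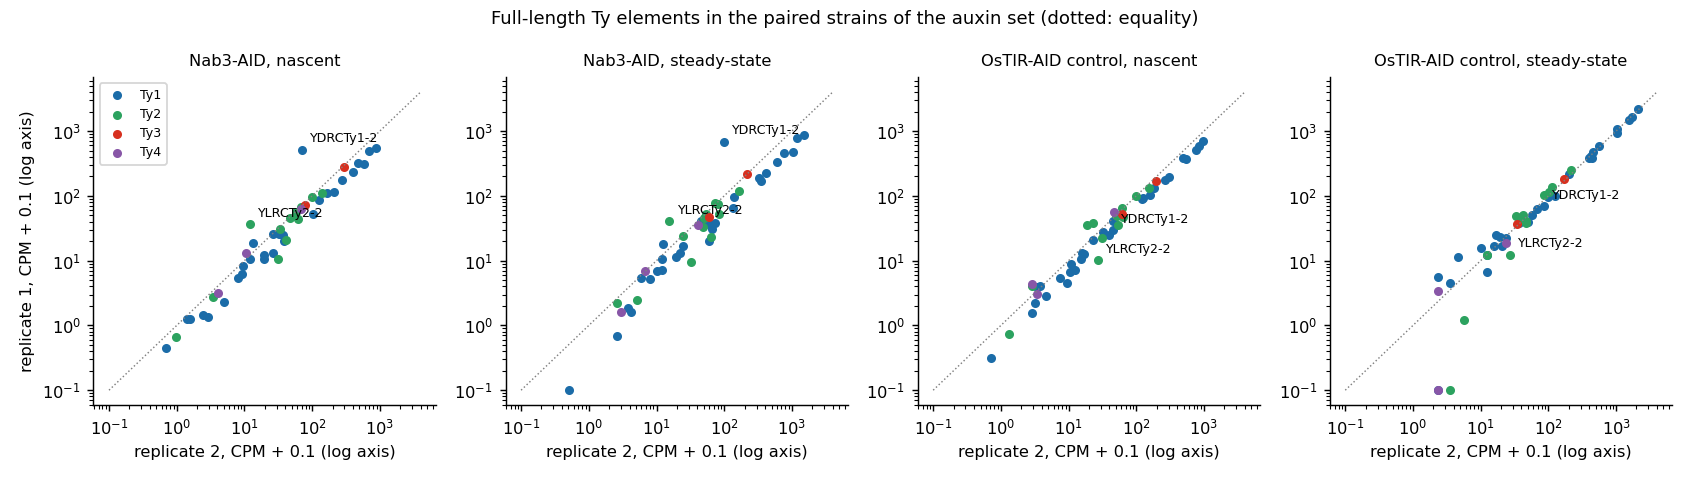
CPM plus 0.1 of each Ty element in replicate 1 against replicate 2 of the 4 groups with auxin, on log axes, with a dotted line of equality. Most elements lie along the line, and YDRCTy1-2 lies off it in both Nab3-AID groups, at 516 and 71.0 CPM and at 685 and 99.6 CPM.

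Noncoding RNAs that run antisense to Ty rows were taken from the table of representative noncoding transcripts, where 86 overlap a Ty row by at least 100 bases on the other strand, 20 over elements and 66 over LTRs. Antisense RNA is known to restrict Ty1. In quiescence against G1, 24 were higher and 12 lower of 63 tested in steady-state RNA, against 40.7% higher and 16.7% lower of all noncoding RNAs tested, and with K. lactis scaling 16 and 10. In nascent RNA 39 were higher and 12 lower, against 55.4% and 11.3%, but with K. lactis scaling none was higher and 50 were lower. In rrp6Δ 52 were higher and 1 lower of 67 in G1, against 69% and 3.54%, and with K. lactis scaling 53 and none. In quiescent steady-state RNA of rrp6Δ 24 were higher and 1 lower of 64, against 33.6% and 5.14%, and with K. lactis scaling 47 and none. That count of 25 was 14 without rrp6Δ replicate 2 and 15 and 11 without wild-type replicates 1 and 2. In the nascent RNA of the same strains 11 were higher and 1 lower, against 15.8% and 1.96%, with 2 and none under K. lactis scaling and a count of 7 without rrp6Δ replicate 2. In Nab3-AID 31 were higher and 1 lower of 64 in steady-state RNA, against 61.7% and 9.59%, and 47 and 2 in nascent RNA, against 73.8% and 9.07%. Scaled to K. lactis, the Nab3-AID counts were 58 and none and 55 and none. A second catalogue, of transcripts the authors assembled from quiescent nascent reads, holds 26 antisense RNAs over Ty rows, 6 of them over elements. Of these 17 were higher and 1 lower in quiescent than in G1 steady-state RNA, against 41.8% and 33.7% of that catalogue, and 21 and 1 in nascent RNA, against 36.8% and 30.1%. Transcripts found in quiescent reads were chosen for being present there, so nothing is read from that direction, and K. lactis scaling was not run on them.

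Among the 86 antisense RNAs of the first catalogue, 3 overlap YNLWTy1-2, the best-read Ty1 element, and the longest runs from 524884 to 529572 of chromosome XIV on the minus strand and shares 179 bases with it. It was picked after its values were seen. It stood at 137 and 125 CPM in rrp6Δ and 14.6 and 12.5 CPM in wild-type G1 cells. In quiescent steady-state RNA it stood at 107 and 89.0 against 17.9 and 15.2 CPM, a difference of 2.56 ± 0.25 (edgeR adjusted p = 1.8e-06). In Nab3-AID it stood at 175 and 198 against 10.03 and 10.1 CPM in steady-state RNA and at 203 and 197 against 9.29 and 12.2 CPM in nascent RNA, differences of 4.20 and 4.24 on the log2 scale. The groups were apart in each of these. Beside these values YNLWTy1-2 itself was lower in rrp6Δ in G1, did not pass in quiescent rrp6Δ cells, at -0.27 ± 0.15 (edgeR adjusted p = 0.29), and did not pass in Nab3-AID. No relation between the antisense RNA and the element was tested.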

How the data were processed

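Counts of reads per feature were deposited by the authors as tables with 46 columns for 44 samples. Per the submitters' processing notes, FastQC, MultiQC, UMI-tools, STAR, SAMtools, HTSeq and deepTools and the builds sacCer3 and R64 were used, with versions not given in the sources used here. For 2 samples there were 2 columns each, which the headers mark as different batches, and these columns were summed. No column of sample values was left unused.

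Ty rows were taken by category from the table of coding and structural features, and library sizes and TMM factors from the S. cerevisiae rows of the mRNA table, with summary rows left out. Each of the 4 sets was fitted over the whole table with edgeR 4.0.16 in R 4.3.3 (filterByExpr, quasi-likelihood F-test with the robust option), in 19 comparisons. Benjamini-Hochberg adjustment ran over all rows tested, and the threshold was an adjusted p of 0.05. Higher and lower mean past that threshold. Every value with ± is a log2 fold change with its standard error for n = 2 samples per group. Log2 CPM used a prior count of 2. Intervals at 95% for counts, and the floor of 3 counts per group, hold counting error and nothing else. The fitting script was tested on simulated data.

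Named rows were up to 5 of the largest called changes in each direction per comparison with groups that do not overlap, every Ty3, Ty4 and Ty5 row tested, and the best-read Ty1 and Ty2 rows. Those that carry a result are given. Rows named outside this rule, among them the rows of the strain ratios, YGLCdelta5 and YGLCsigma1 in the first set and YDRWdelta7 in G1, were chosen after their values were seen. Members and gene lists were chosen with earlier results of these data known. The alternatives were DESeq2 1.42.0, no filter, TMM from the feature table, K. lactis scaling, the replicate number as a block and leaving out each library. The split of delta rows, the ratio of replicate strains and a catalogue of transcripts assembled from quiescent nascent reads were added after seeing the data. No genome was used here, so no sequences are shown.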

Additional observations from a re-analysis of the deposited data

Results flagged for a closer look

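The change between quiescent and G1 wild-type cells differed between nascent and steady-state RNA, by a test of the difference itself, for 31 Ty rows. Of all rows tested, 20% had a positive and 17% a negative difference, larger shares than among Ty rows. The named rows with a positive difference were YERCTy1-1 at 6.33, YDRWdelta7 at 3.16, YHRWdelta7 at 2.16, YCLWTy2-1 at 2.04, YILWTy3-1 at 1.92, YDRWTy2-3 at 1.79, YGRWTy3-1 at 1.56 and YJLWTy4-1 at 1.19 on the log2 scale. Those with a negative difference were YILCdelta1 at -7.56, YGRCdelta20 at -3.39, YDRWsigma5 at -2.68, YORWsigma4_YORWdelta22 at -1.97 and YGLWdelta4 at -1.75. The values of YERCTy1-1 and YILCdelta1 rest on groups at 0 reads and depend on the prior count. All the positive differences of called rows given here turn negative with K. lactis scaling except that of YERCTy1-1.

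The change from 2 h before to 48 h after the diauxic shift differed between rrp6Δ and wild-type cells, by the same kind of test, for 41 Ty rows, all with a smaller rise or larger fall in rrp6Δ. Of all rows tested, 26.7% differed in that direction and 22% in the other, larger shares than among Ty rows. Named rows were YHRCdelta6 at -6.97, YPLCdelta10 at -6.13, YGLCtau3 at -4.46, YALCdelta2 at -4.10, YALWdelta1 at -4.08, YDRWTy2-3 at -0.57 and YNLWTy1-2 at -0.55 on the log2 scale. With K. lactis scaling YNLWTy1-2 and YDRWTy2-3 turned to 0.60 and 0.63.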

How the results depend on the processing

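Results depended mainly on the scaling. With K. lactis scaling these named rows turned direction, on the log2 scale. Interaction of nascent and steady-state change: YDRWdelta7 -0.90, YHRWdelta7 -1.87, YCLWTy2-1 -2.08, YILWTy3-1 -2.31, YGRWTy3-1 -2.63, YJLWTy4-1 -2.85 and YDRWTy2-3 -2.32. Nascent against steady-state, G1: YGRWTy3-1 1.05, YILWTy3-1 0.85 and YDRWTy2-3 0.53. The same in quiescence: YKLWdelta3 -0.18, YOLCdelta1 -0.30 and YJLWTy4-1 -1.27. In quiescent rrp6Δ steady-state RNA YBLWTy1-1 was 0.32. In rrp6Δ at 2 h before the shift YGRWTy3-1 was -0.086 and YDRWTy2-3 -0.0086. At 2 h after, YGRWTy3-1 was -0.35, YILWTy3-1 -0.036, YJLWTy4-1 -0.29 and YNLWTy1-2 -0.079. At 24 h, YGRWTy3-1 was 1.07, YILWTy3-1 0.56, YJLWTy4-1 0.98 and YNLWTy1-2 0.62, and at 48 h YNLWTy1-2 was 0.29. In wild-type steps, at 2 h after against 2 h before the shift YGRWTy3-1 was -0.16, YILWTy3-1 -0.42 and YJLWTy4-1 -0.29. For 24 h against 2 h YGRWTy3-1 was -0.96, YILWTy3-1 -0.56, YNLWTy1-2 -0.58 and YDRWTy2-3 -0.79, and for 48 h against 24 h YNLWTy1-2 was -0.88 and YDRWTy2-3 -0.89. For the interaction of strain and time YNLWTy1-2 was 0.60 and YDRWTy2-3 0.63. In Nab3-AID YDRWTy2-3 was 1.02 in steady-state and 0.55 in nascent RNA. Counts of rows called with K. lactis scaling were 168 for the interaction of nascent and steady-state change, 134 for nascent against steady-state in quiescence, 95 and 3 for quiescent rrp6Δ steady-state and nascent RNA, 81, 174 and 118 for rrp6Δ at 2 h, 24 h and 48 h after the shift, 109 and 140 for the last wild-type steps and 119 for Nab3-AID steady-state RNA. Antisense counts were 47 and 2 in quiescent rrp6Δ steady-state and nascent RNA and 58 in Nab3-AID steady-state RNA. In the second catalogue, which lists fewer antisense RNAs, their counts of 26 were 18 and 22 in quiescence against G1 (steady-state and nascent), beside 75.4% and 66.9% of that whole catalogue, 7 and 0 in quiescent rrp6Δ (edgeR, with 8 at an unadjusted p under 0.05 for the latter), beside 20.5% and 3.24%, 17 and 19 in rrp6Δ in G1 and at 2 h before the shift, beside 53.5% and 67.3%, and 12 and 21 in Nab3-AID, beside 65% and 70.9%. The cause was not tested. For quiescent rrp6Δ nascent RNA, where 7 rows were called, DESeq2 called 13 and the fit with the replicate block 12. Correlations of same-numbered samples ranged from -0.0574 to 0.63 and were not over 0.1 for all pairs, so the numbers were not taken to pair the samples. The replicate block left the other 26 counts within 1.5 times. With single libraries left out, counts ranged over 15 to 48 for the interaction of nascent and steady-state change, 21 to 32 for nascent against steady-state in G1 where a G1 library was out, 1 to 4 and 2 to 5 for quiescent rrp6Δ steady-state and nascent RNA, 23 to 43 for rrp6Δ at 48 h, 44 to 64 for the last wild-type step, 26 to 52 for the interaction of strain and time, 48 to 78 for Nab3-AID steady-state RNA (48 without control replicate 1), and 11 to 21 and 7 to 12 for antisense RNAs in quiescent rrp6Δ steady-state and nascent RNA. Among named rows DESeq2 weakened 18 calls, the block 5, no filter 3 and the feature-table factors 4. The share of each row in sequence of its own was not run, since no genome was used here. Rows at few reads, such as most LTR rows, have intervals too wide to rank.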
